A study of Mus musculus with 6 samples.

Results

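Replication-dependent histone genes were taken as the rows of both deposited count tables whose symbol begins with Hist1h, Hist2h, Hist3h or Hist4h, which gave 68 of 26286 genes. They comprised 6 genes of the linker histone H1, 19 of H2A, 19 of H2B, 12 of H3 and 12 of H4. By chromosome, 54 lay on chromosome 13, 10 on chromosome 3, 3 on chromosome 11 and 1 on chromosome 6.

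Core histones H2A, H2B, H3 and H4 form the nucleosome around which DNA is wrapped, and H1 binds the DNA between nucleosomes. The clustered genes encode the supply made in S phase, when new DNA has to be packaged. Their transcripts usually have no introns and end in a conserved stem-loop in place of a poly(A) tail, which stem-loop binding protein (Slbp) recognises, and they are degraded when replication stops. Some of these genes can also give polyadenylated transcripts.

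The libraries came from regulatory T cells (Treg), CD4+ cells that restrain immune responses, of C57BL/6 mice with a green fluorescent protein reporter of Blimp-1, the repressor encoded by Prdm1. CD4+ CD25high cells of pooled spleens and lymph nodes were sorted into GFP+ and GFP- cells, with 3 libraries of each, and all 6 titles carry the prefix BlimpHet. GFP- replicate 20 and GFP+ replicate 19 were made by poly(A) selection. GFP- replicates 2 and 5 and GFP+ replicates 1 and 4 were made by an mRNA protocol devised for single cells, applied here to sorted populations. Every group therefore shared the reporter, the strain, the tissue and the CD25 gate. The labels give neither the age of the mice nor how many were pooled. The study's design calls the 3 samples of a population biologically independent, and the p-values below measure the spread between these libraries.

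Values of single libraries are given below in 1 order, GFP- replicates 20, 2 and 5 and then GFP+ replicates 19, 1 and 4, the poly(A) library first in each population. Libraries held 15224051 to 28354321 counts. Prdm1 was at 8.60, 2.32 and 2.51 CPM (the count scaled to a common library size after TMM normalisation) in GFP- libraries and at 143, 41.8 and 27.8 CPM in GFP+ libraries, above each GFP- library in every case. Foxp3, the defining Treg factor, stood between 1034 and 2474 CPM in every library. Of 8 tested Treg and T cell markers 1, Ctla4, was higher in the population test, where 9.81% of all tested genes were higher. Myeloid markers moved with the populations: 12 of 12 tested were higher in GFP+ libraries, their summed level was 16.8 to 29.8 CPM in GFP- and 830 to 1692 CPM in GFP+ libraries, and Itgam was at 0 in GFP- replicates 2 and 5. In the table of the single-cell protocol, 1090 of 1092 genes on chromosome 3 were at 0, and chromosomes 8 and 9 were without counts in the same way. All 10 chromosome 3 histone genes were therefore measured in the poly(A) pair alone.

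The stem-loop was looked for in GENCODE transcripts of build GRCm38, in which 66 of the 68 genes had a match. A pattern of 16 bases, with a stem of 6 pairs and a loop of 4 bases, was found in 45 of these 66 (68.2%) and in 68 of 21901 coding genes of the annotation (0.310%). The transcripts without it include gene models that end with the coding sequence, so nothing follows from its absence. Stem-loops are shown for members of each class on which the results turn, with the 16 bases in capitals and flanking bases in lower case.
Hist1h1c (chr13:23739507-23739532, plus strand): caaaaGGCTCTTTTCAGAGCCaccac
Hist1h2ao (chr13:21810893-21810918, plus strand): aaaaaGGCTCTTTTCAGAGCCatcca
Hist1h2ag (chr13:22042478-22042503, minus strand): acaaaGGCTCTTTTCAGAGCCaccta
Hist1h2bj (chr13:22043633-22043658, plus strand): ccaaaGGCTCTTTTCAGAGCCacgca
Hist1h3e (chr13:23561898-23561923, minus strand): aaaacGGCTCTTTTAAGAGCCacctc
Hist1h3c (chr13:23745042-23745067, minus strand): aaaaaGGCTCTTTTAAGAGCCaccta
Hist1h4i (chr13:22040961-22040986, minus strand): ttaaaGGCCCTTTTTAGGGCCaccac
Hist1h4h (chr13:23531453-23531478, plus strand): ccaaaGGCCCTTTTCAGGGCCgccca
Hist2h2ac (chr3:96220413-96220438, minus strand): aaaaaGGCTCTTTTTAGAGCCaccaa
The form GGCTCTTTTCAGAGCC was held by 26 genes, 10 of H2A, 8 of H2B, 5 of H3 and 3 of H1. The 11 H4 genes with a match had other forms, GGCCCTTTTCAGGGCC in 6 of them, and none of the other classes held an H4 form.

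Many H2A, H2B, H3 and H4 genes shared much of their coding sequence with other genes of the set, which bears on how reads could be assigned. Of all stretches of 50 coding bases, the median H2A gene shared 83.3% with at least 1 other histone gene of the set, the median H2B gene 79.8%, the median H3 gene 79.0%, the median H4 gene 62.5% and the median H1 gene 10.9%. Hist1h2ad, Hist1h2ag, Hist1h2ao and Hist1h2ap shared 100% of theirs, whereas Hist1h2aa shared 2.35% and Hist3h2a 12.2%. The most widely shared stretches of H2A and H4 are printed as they lie in a member of each class, with the 50 shared bases in capitals and 10 bases on each side in lower case.
Hist1h2ao (chr13:21810634-21810703, plus strand): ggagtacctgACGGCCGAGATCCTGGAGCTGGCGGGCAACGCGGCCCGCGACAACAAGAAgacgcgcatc
Hist1h4i (chr13:22041072-22041141, minus strand): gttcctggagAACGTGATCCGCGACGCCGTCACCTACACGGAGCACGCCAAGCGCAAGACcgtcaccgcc
The H2A stretch was present in 16 H2A genes and the H4 stretch in 10 H4 genes. The sources used here do not state whether reads that match several genes were counted, so values of single genes with near-identical copies are uncertain, and sums over a class are given beside them. Strand use in counting is not stated either, and reads of overlapping or antisense genes could not be told apart.

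Summed over the 58 genes off chromosome 3, histone counts made up 0.0162% of GFP- replicate 20, 0.0269% of replicate 2 and 0.0378% of replicate 5. In GFP+ libraries the share was 0.0546% in replicate 19, 0.123% in replicate 1 and 0.238% in replicate 4. By this share every GFP+ library lay above every GFP- library. In summed CPM after TMM scaling, GFP+ replicate 19 (297) lay below GFP- replicates 2 (300) and 5 (687), and the populations were apart within each protocol. The exact 95% binomial interval, which covers counting error only, was 0.0157% to 0.0166% for GFP- replicate 20 and 0.236% to 0.240% for GFP+ replicate 4. Summed CPM, after TMM scaling, was 3.30-fold higher in GFP+ cells within the poly(A) pair. In the single-cell protocol the ratio of mean summed CPM was 4.59, and the ratios of single libraries ran from 2.43 to 9.56. These ratios and those of the classes below are of summed CPM and not of the shares.

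H2A genes supplied most of these counts, from 78.8% of the histone counts in GFP- replicate 20 to 95.6% in GFP+ replicate 4. Their 15 genes off chromosome 3 summed to 3463, 3732 and 5111 counts in GFP- libraries and to 14175, 20070 and 40102 counts in GFP+ libraries. The summed CPM of these H2A genes was 3.83-fold higher in GFP+ cells in the poly(A) pair. It was 4.96-fold higher in the single-cell protocol, where libraries did not overlap. The part of H2A in the histone counts was itself higher in each GFP+ library (91.5% to 95.6%) than in each GFP- library (78.8% to 88.8%), a difference that was not tested.

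The other classes were lower in count and their ratios smaller. H3 genes off chromosome 3 held 85, 57 and 56 counts in GFP- and 201, 211 and 280 counts in GFP+ libraries. Their summed CPM was 2.21-fold higher in the poly(A) pair and 3.35-fold higher in the single-cell protocol. With the 3 chromosome 3 genes included, H3 counts in the poly(A) pair were 344 and 462 and the ratio of summed CPM was 1.26. H2B genes off chromosome 3 held 356, 216 and 207 counts in GFP- and 390, 648 and 734 counts in GFP+ libraries. Summed H2B CPM had a ratio of 1.03 in the poly(A) pair and was 2.54-fold higher in the single-cell protocol without overlap. H4 ratios were 1.24 and 1.48. H1 ratios were 1.48 and 1.56. Summed H1 CPM overlapped between populations in the single-cell protocol, where single ratios ran from 0.912 to 2.97. The H1 shares of library counts did not overlap there, at 0.000913% and 0.00123% in GFP- and at 0.00151% and 0.00251% in GFP+ libraries.

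**Figure D1:**
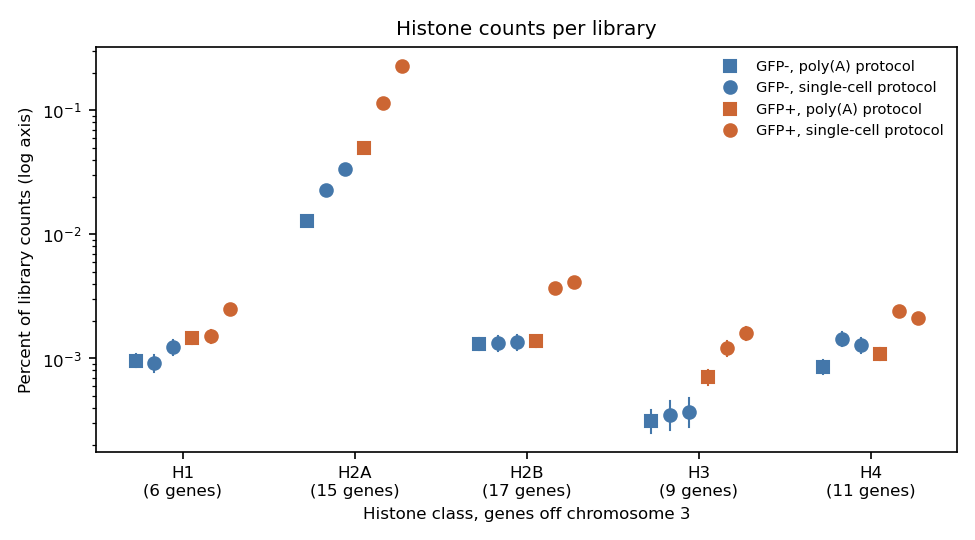
Share of each library's counts (percent, log axis) in the histone genes of each class off chromosome 3, with exact 95% binomial intervals for counting error. Points are single libraries, colour is the population and shape the protocol. The H2A points rise from 0.0127% in GFP- replicate 20 to 0.228% in GFP+ replicate 4. Those of H4 run from 0.000852% in GFP- replicate 20 to 0.00243% in GFP+ replicate 1.

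For single genes, edgeR's quasi-likelihood test compared GFP+ with GFP- cells across the 6 libraries, and a protocol term was in the model. Of the 68 genes, 47 passed the filter on low counts, 9 were counted in both protocols but too low to test (0 to 38 counts in a library), 10 were measured in the poly(A) pair alone, and Hist1h1t and Hist1h2af, a testis H1 and an H2A gene, were at 0 in every library. With Benjamini-Hochberg adjustment over 10523 genes at 0.05, 21 of the 47 were higher in GFP+ cells and 0 were lower, where 9.81% of all tested genes were higher and 3.68% lower (13.5% in either direction). Of the 47, Hist1h1b, Hist1h2bh, Hist1h3f, Hist1h3h and Hist1h3i reached the filter's minimum, 10 counts in a library of median size, in the 3 GFP+ libraries and in 0 GFP- libraries. These 5 entered the test only through the population in which they were high, and 3 of them are among the 21. Of the other 42 genes 18 were called. The filter asks for its minimum in 3 libraries. Among the 18, Hist1h2bf and Hist1h2bj reached it in 2 GFP- libraries, and Hist1h2bn, Hist1h3c and Hist1h3e in 1. Those genes too needed GFP+ libraries to be tested, whereas the 13 called H2A genes reached it in all 3 GFP- libraries. The median log2 fold change was 1.31 over the 47 genes and -0.077 over all tested genes. In these bulk samples, more cells of a kind and more RNA per cell cannot be told apart.

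**Figure D2:**
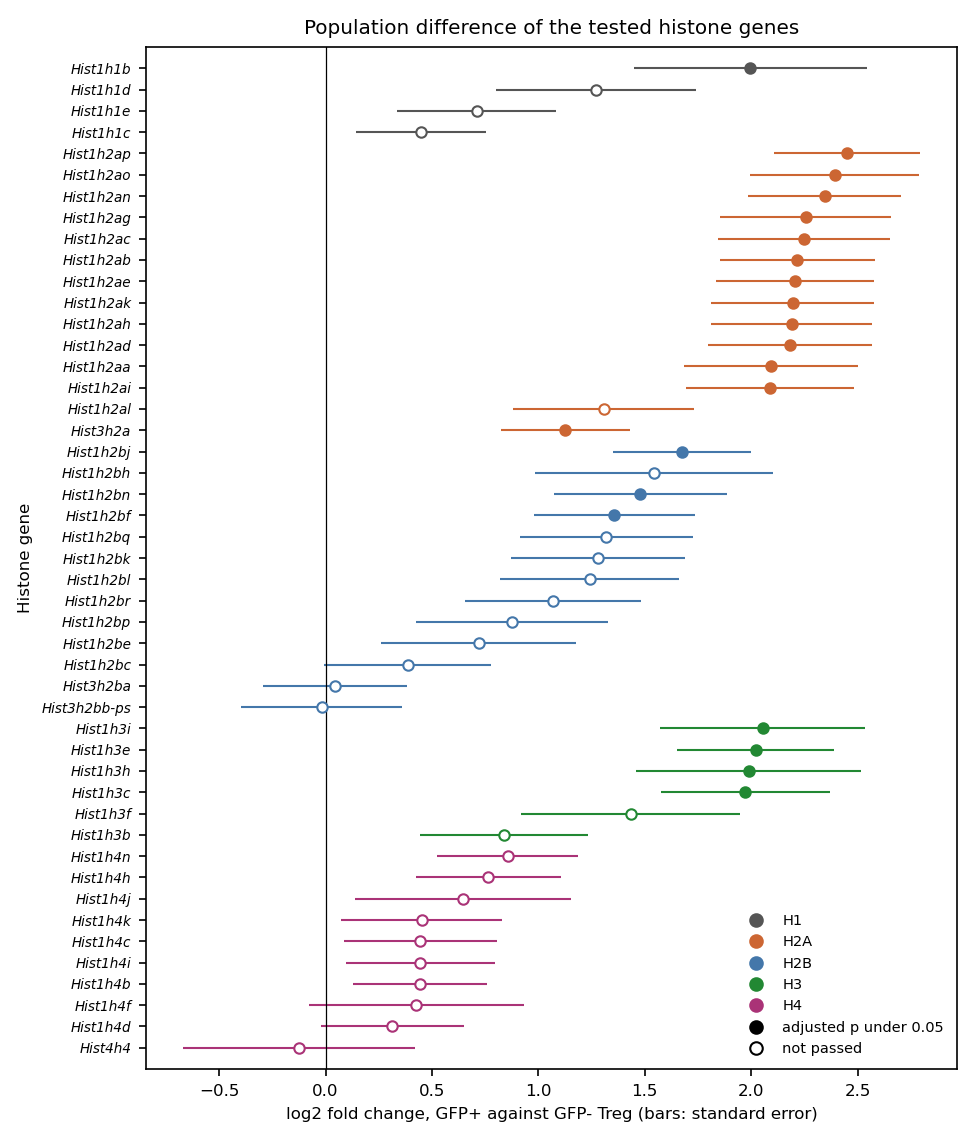
Fitted log2 fold change of GFP+ against GFP- Treg with its standard error for the 47 tested histone genes, grouped by class; filled points have an adjusted p under 0.05. The H2A genes of chromosome 13 lie toward the right, between 2.09 and 2.45 apart from Hist1h2al, and the H4 genes lie around 0.45.

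The linker histones were mostly low. Hist1h1c, the H1 gene with the highest level per kilobase, stood at 3.81, 6.35 and 12.1 CPM in GFP- libraries and at 5.01, 10.1 and 15.2 CPM in GFP+ libraries. Its GFP+ and GFP- libraries overlapped within the single-cell protocol, and the log2 fold change was 0.45 ± 0.30 (SE, adjusted p = 0.395). Hist1h1b, another somatic H1, had 2, 5 and 3 counts in GFP- and 21, 10 and 17 counts in GFP+ libraries and was the 1 of 4 tested H1 genes called, at 2.00 ± 0.55 (adjusted p = 0.0445). That call was lost without GFP- replicate 20 or 2 or GFP+ replicate 19, 1 or 4 (adjusted p 0.0700 to 0.393), with limma-voom (0.0541) and with limma on the deposited log2 RPKM (0.0683). Since Hist1h1b passed the filter through its GFP+ libraries alone, the call does not stand as support for a change in H1. Hist1h1d and Hist1h1e had log2 fold changes of 1.27 and 0.71 and did not pass.

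H2A genes moved together. Of 14 tested, 13 were higher in GFP+ cells, and the 12 of them on chromosome 13 had log2 fold changes of 2.09 to 2.45 with adjusted p of 0.00192 to 0.00997. Hist1h2ao, the H2A gene with most counts, stood at 17.5, 63.2 and 152 CPM in GFP- libraries and at 88.7, 406 and 741 CPM in GFP+ libraries. Within each protocol both populations were apart for this gene, although GFP- replicate 5 exceeded the poly(A) library of GFP+ cells. Its log2 fold change was 2.39 ± 0.40 (adjusted p = 0.00448). Hist1h2ap, an H2A gene with the same coding stretches as other members throughout, went from 4.30, 19.1 and 33.1 CPM to 19.2, 105 and 208 CPM, with the largest log2 fold change of the 47 genes, 2.45 ± 0.34 (adjusted p = 0.00192). Hist1h2an had 2.35 ± 0.36 and Hist1h2ag 2.26 ± 0.40. These 12 calls remained under every alternative scaling, filter and tool run and without any single library (adjusted p up to 0.0339), and ended when the protocol was left out of the model.

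The member with the least shared sequence of that group gave a similar value. Hist1h2aa had 55, 33 and 47 counts in GFP- libraries and 168, 188 and 373 counts in GFP+ libraries. These counts did not overlap between populations. After TMM scaling, GFP+ replicate 19 (3.22 CPM) lay below GFP- replicate 5 (5.61 CPM). Within each protocol the populations were apart, and the log2 fold change was 2.09 ± 0.41 (adjusted p = 0.00997). Hist3h2a, the H2A gene of chromosome 11, had a smaller value. It was at 9.24, 11.4 and 18.1 CPM in GFP- and at 13.2, 32.8 and 47.0 CPM in GFP+ libraries, a log2 fold change of 1.13 ± 0.30 (adjusted p = 0.0416), and its share of the H2A counts was 13.02% in GFP- replicate 20 and 1.71% in GFP+ replicate 4. The Hist3h2a call was lost without GFP- replicate 2 or GFP+ replicate 1, 4 or 19 (adjusted p 0.0515 to 0.125) and with RLE size factors (0.0566). Hist1h2al, named here after its values were seen because it was the only tested H2A gene that did not pass, had 1.31 ± 0.43 (adjusted p = 0.0842).

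For the 12 called H2A genes of chromosome 13, the highest share of the H2A counts in a library was 1.17 to 1.97 times the lowest. Hist1h2ao took 24.7% to 32.6% of the H2A counts off chromosome 3 in the 6 libraries, Hist1h2ag 9.70% to 12.5% and Hist1h2ad 7.77% to 9.09%. Per kilobase of table length, the order in GFP+ replicate 4 was Hist1h2ao at 1442 CPM per kilobase, Hist1h2ak at 758, Hist1h2ag at 716 and Hist1h2ad at 542, against 65.4 for Hist1h2aa and 23.6 for Hist3h2a. Differences between these genes were not tested, and Hist1h2ad, Hist1h2ag and Hist1h2ao are among the genes whose coding stretches are shared throughout.

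**Figure D3:**
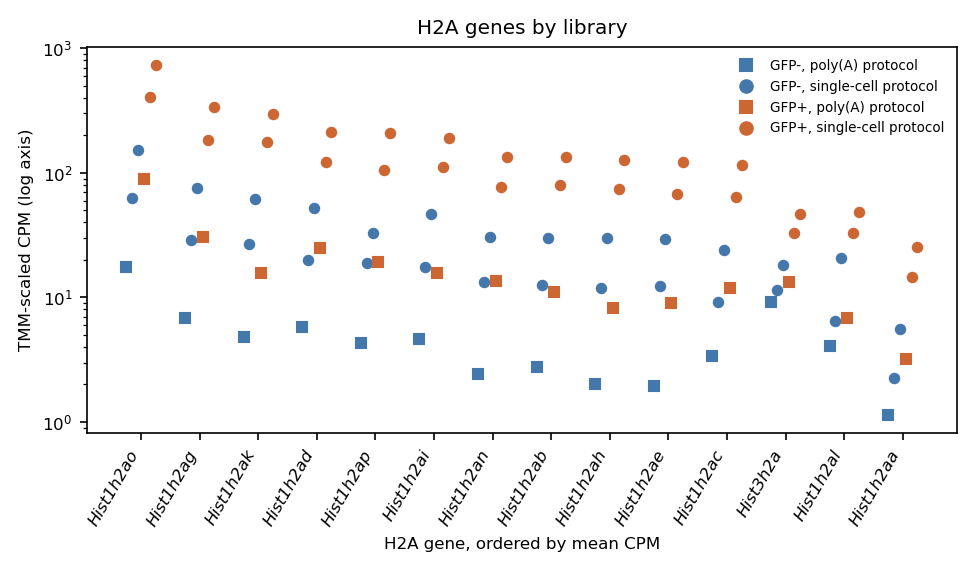
TMM-scaled CPM (log axis) of the 14 tested H2A genes in each library, ordered by mean level. Within each protocol the GFP+ points lie above the GFP- points for each gene, and the poly(A) libraries lie below the single-cell protocol libraries of the same population.

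Summed levels of erythroid markers, chiefly the haemoglobin genes Hba-a1, Hba-a2 and Hbb-b1, moved with the H2A counts across libraries. They were 32.6, 153 and 559 CPM in GFP- libraries and 93.4, 984 and 1705 CPM in GFP+ libraries, so that both measures had the same order of libraries within each protocol. Of 4 tested erythroid markers 2 were higher in GFP+ cells, Hba-a1 and Hba-a2, and the erythroid factor Klf1, on chromosome 8, was at 0.082 and 0.211 CPM in the poly(A) libraries. Myeloid markers, given above, also rose with the population. Among 7 tested B and plasma cell markers 1 was higher, Sdc1, a share near the 9.81% of all tested genes that were higher. Their summed levels were 119 to 335 CPM in GFP- and 156 to 648 CPM in GFP+ libraries. Of 6 tested CD8 T and natural killer markers 2 were lower, where 3.68% of all tested genes were lower. Their sums were 41.5 to 86.1 CPM in GFP- and 30.3 to 65.4 CPM in GFP+ libraries. Summed myeloid markers and summed B and plasma cell markers also had the library order of the H2A counts within each protocol. Summed CD8 T and natural killer markers did not. The part of any of these cell types in the histone difference was not tested.

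Of 13 tested H2B genes, 3 were higher in GFP+ cells and 10 did not pass, with a median log2 fold change of 1.24. Hist1h2bj had 9, 21 and 12 counts in GFP- libraries and 24, 64 and 76 counts in GFP+ libraries. Every GFP+ library exceeded every GFP- library in count. After TMM scaling this held only within each protocol, with GFP+ replicate 19 at 0.460 CPM and GFP- replicates 2 and 5 each at 1.43 CPM. The log2 fold change was 1.68 ± 0.32 (adjusted p = 0.00932). That call was lost narrowly without GFP- replicate 20 (0.0542) or GFP+ replicate 19 (0.0519). Hist1h2bn, with 4 to 11 counts in GFP- and 14 to 28 in GFP+ libraries, had 1.48 ± 0.41 (adjusted p = 0.0458), and leaving out any of the 6 libraries ended the call (0.0924 to 0.196), as did total counts (0.0677) and limma-voom (0.0506). Hist1h2bf had 1.36 ± 0.38 (adjusted p = 0.0487), and its call ended without GFP- replicate 20 or 2 or GFP+ replicate 19, 1 or 4 (0.129 to 0.181), with RLE size factors (0.0570), with total counts (0.0580) and with limma-voom (0.0502). Hist3h2ba of chromosome 11, with 24 to 92 counts in GFP- and 41 to 70 in GFP+ libraries, had 0.043 ± 0.34, and Hist1h2bc had 0.39 ± 0.39.

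Of the H2A genes, 10 point away from an H2B gene, with RefSeq start sites 164 to 281 bases apart. The stretches between the starts of 3 such pairs are shown as examples, whether or not the H2B gene was called. They are from RefSeq, build GRCm38.p6, on the strand of the H2A gene, with CCAAT and the octamer ATTTGCAT in capitals on either strand.
Hist1h2ag and Hist1h2bj (chr13:22042950-22043197, minus strand): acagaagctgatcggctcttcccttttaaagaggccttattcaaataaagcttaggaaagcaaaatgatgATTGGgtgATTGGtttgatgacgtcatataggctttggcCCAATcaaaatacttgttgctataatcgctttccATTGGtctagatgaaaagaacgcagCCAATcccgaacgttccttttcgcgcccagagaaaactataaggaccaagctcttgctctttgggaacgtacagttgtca
Hist1h2ak and Hist1h2bn (chr13:21753913-21754075, minus strand): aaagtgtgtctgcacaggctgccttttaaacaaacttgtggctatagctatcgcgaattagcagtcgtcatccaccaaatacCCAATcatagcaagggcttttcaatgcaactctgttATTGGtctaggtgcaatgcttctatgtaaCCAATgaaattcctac
Hist1h2ah and Hist1h2bk (chr13:22035644-22035820, minus strand): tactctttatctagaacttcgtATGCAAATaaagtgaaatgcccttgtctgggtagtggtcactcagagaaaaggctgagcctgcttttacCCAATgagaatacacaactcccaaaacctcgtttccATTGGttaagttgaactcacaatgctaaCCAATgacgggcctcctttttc
Hist1h2ag and Hist1h2bj were both called, as were Hist1h2ak and Hist1h2bn. Hist1h2ah rose (2.19 ± 0.38, adjusted p = 0.00556) while its neighbour Hist1h2bk had 1.28 ± 0.41 and did not pass (0.0777). The Hist1h2bk value lay near the 1.48 ± 0.41 of Hist1h2bn, whose call was lost without any single library. A difference between these pairs was not tested, and the stretches were not compared with the calls. Of the 10 pairs, 10 H2A and 3 H2B genes were called, and in 8 of 8 pairs with both genes tested the H2A value was the larger, by 0.58 to 1.47 on the log2 scale, a difference not tested itself. Per kilobase the H2A gene exceeded its H2B neighbour by 5.42-fold to 710-fold in single libraries. The highest value was of Hist1h2ao over Hist1h2bq, which has a table length of 2121 bases and 405 coding bases. By count, without regard to length, the ratios of the pairs ran from 5.5 to 172.

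**Figure D4:**
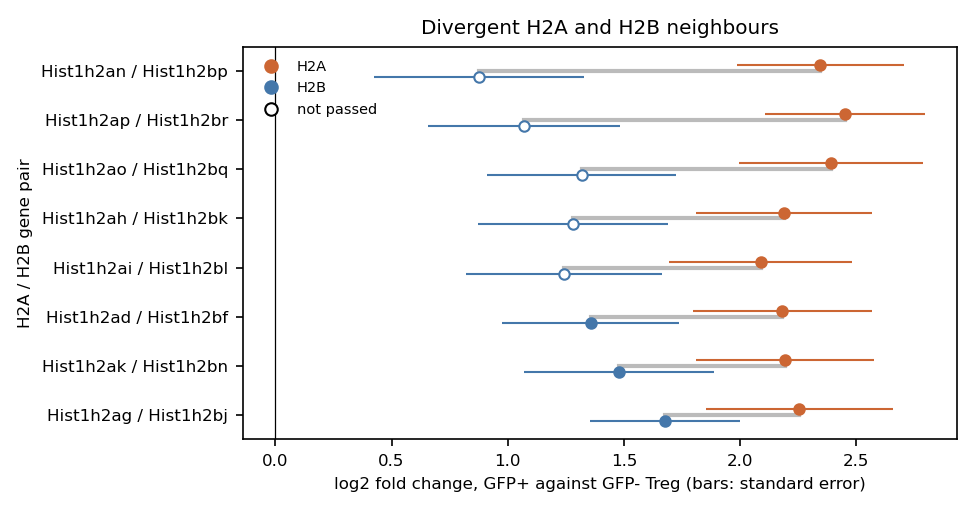
Fitted log2 fold change of GFP+ against GFP- Treg with its standard error for the 8 divergent pairs in which both the H2A and the H2B gene were tested; open points did not pass. In each pair the H2A point lies to the right of the H2B point, and the error bars overlap for Hist1h2ag and Hist1h2bj and for Hist1h2ak and Hist1h2bn.

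Promoter windows of 250 bases before to 50 after the RefSeq start were at hand for 61 of the 68 genes and for 27025 genes in all. Both strands were searched for TATAAA, which 34 of the 61 held (55.7%, against 15.7% of all genes), and for CCAAT, which 53 held (86.9%, against 41.1%). CCAAT was present in 18 of 18 H2A, 16 of 16 H2B, 10 of 10 H3 and 6 of 6 H1 windows and in 3 of 11 H4 windows. The octamer ATTTGCAT, known as a site of Oct-1 in H2B promoters, was held by 14 windows (23.0%, against 1.97%), 7 of H2A and 7 of H2B genes. A match describes letters and not a bound factor.

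H3 genes had few counts but large fitted changes. Of 6 tested, 4 were higher in GFP+ cells and none lower, with a median log2 fold change of 1.98. Hist1h3e had 10, 10 and 7 counts in GFP- libraries and 30, 46 and 56 counts in GFP+ libraries. These counts did not overlap. After TMM scaling, GFP+ replicate 19 (0.575 CPM) lay below GFP- replicates 2 (0.683 CPM) and 5 (0.836 CPM). Within each protocol the populations were apart, and the log2 fold change was 2.02 ± 0.37 (adjusted p = 0.00731). Hist1h3c, with 9, 10 and 5 against 27, 32 and 53 counts, had 1.97 ± 0.40 (adjusted p = 0.0117). Both calls remained without any single library. Hist1h3h, with 3 or 4 counts in each GFP- library, and Hist1h3i, with 4 to 9, had 1.99 ± 0.53 (adjusted p = 0.0399) and 2.05 ± 0.48 (adjusted p = 0.0226). Both of these passed the filter through their GFP+ libraries alone. Hist1h3e and Hist1h3c reached its minimum in 1 GFP- and 3 GFP+ libraries, where 3 libraries are needed. Each of the 4 H3 calls is therefore of a gene that needed GFP+ libraries to be tested. The Hist1h3h call ended without GFP- replicate 20 or 2 or GFP+ replicate 19, 1 or 4 (0.0707 to 0.294), and that of Hist1h3i without GFP- replicate 2 or GFP+ replicate 1 or 4 (0.0502 to 0.0920). Hist1h3b, with 16 to 32 counts in GFP- and 44 to 60 in GFP+ libraries, had 0.84 ± 0.40 and did not pass.

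H4 genes did not pass the test. Of 10 tested, 0 were called in either direction by edgeR, 1 had an unadjusted p under 0.05, and DESeq2, limma-voom and limma on the deposited log2 RPKM also called 0. The median log2 fold change was 0.45, and 9 of the 10 values were above 0. Hist1h4i had 36, 37 and 33 counts in GFP- libraries and 36, 81 and 60 counts in GFP+ libraries, equal in the poly(A) pair and higher in GFP+ cells by count in the single-cell protocol, at 0.44 ± 0.35 (adjusted p = 0.468). Hist1h4n had the largest value of the class, 0.86 ± 0.33 (adjusted p = 0.139). Hist4h4, the lone histone gene of chromosome 6, ran from 8 to 44 counts in GFP- and from 13 to 31 in GFP+ libraries, and its value of -0.12 ± 0.55 changed sign without GFP- replicate 2 (0.61) or GFP+ replicate 4 (0.29). A p that misses the threshold does not show that H4 levels were equal.

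Within each protocol the same direction recurred. GFP+ libraries were above GFP- libraries in both protocols, without overlap, for 35 of the 47 tested genes, where 21.3% of all tested genes were so, and below for 0, where 19.3% were. The 35 comprised 14 of 14 H2A, 6 of 6 H3, 8 of 13 H2B, 3 of 4 H1 and 4 of 10 H4 genes. In the 4 single-cell protocol libraries alone, edgeR called 17 of 53 tested histone genes higher (12 H2A, 3 H3 and 2 H2B) and 0 lower, against a background of 5.54% higher and 1.41% lower (6.95% in either direction) for tested genes, and 16 of the 17 were among the 21 above. The interaction of population and protocol was called for 0 of the 47 genes and 0.0% of all genes by edgeR, with 0 histone genes and 24 genes in all at an unadjusted p under 0.05, and DESeq2 also called 0 histone genes. With 2 residual degrees of freedom, its fitted values for H2A genes had standard errors of 0.47 to 0.90.

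The chromosome 3 genes were compared in the poly(A) pair, with 1 library of each population and so no test. Log2 ratios of TMM-scaled levels, with 0.5 counts added, have exact 95% intervals for counting error only. Hist2h2ac had 127 counts in GFP- replicate 20 and 426 in GFP+ replicate 19, a log2 ratio of 1.65 (1.36 to 1.95). Hist2h2aa1 had 234 and 545 counts (1.12, from 0.90 to 1.35), its twin Hist2h2aa2, which shares all its coding stretches with other members, 274 and 657 (1.16, from 0.96 to 1.38), and Hist2h2ab 36 and 72 (0.89, from 0.31 to 1.52). These 4 H2A genes were the only ones of the 10 whose interval lay above 0, and 0 had an interval below 0.

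The other 6 chromosome 3 genes had intervals that include 0, so that their direction was not resolved at this depth. Hist2h3c2, an H3 gene, had 141 and 124 counts (-0.28, from -0.64 to 0.08), Hist2h3c1 64 and 70 counts (0.033) and Hist2h3b 54 and 67 counts (0.21). Hist2h2be, an H2B gene, had 101 and 89 counts (-0.28), Hist2h2bb 11 and 23 counts (0.94, from -0.13 to 2.15) and Hist2h4 15 and 10 counts (-0.66, from -2.00 to 0.57). Over all histone genes with at least 10 counts in a poly(A) library, 24 of 63 had a log2 ratio over 1, among them 15 of 18 H2A, 5 of 12 H3, 2 of 18 H2B, 2 of 4 H1 and 0 of 11 H4 genes. Of all 15115 genes at that minimum, 13.7% had such a ratio.

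Levels were then compared between the protocols. In the same edgeR fit, 44 of the 47 genes were lower in poly(A) than in single-cell protocol libraries and 0 were higher, where 30.5% of all tested genes were lower and 34.6% higher (65.1% in either direction). The median log2 difference, poly(A) minus single-cell protocol, was -2.27 for the 47 genes and 0.15 for all tested genes. By class the medians were -2.91 for H2A, -2.39 for H2B, -2.08 for H4, -1.90 for H1 and -1.89 for H3. Hist1h2ak had the largest difference, -3.55 ± 0.47 (adjusted p = 0.000247), followed by Hist1h2ah at -3.49 and Hist1h2ae at -3.40, and Hist3h2ba (-0.73), Hist3h2bb-ps (-0.36) and Hist1h2bh (-1.50) did not pass.

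Short genes as a whole were also lower in poly(A) libraries. Of 1553 tested genes with a table length of up to 1000 bases, 73.2% were called lower in poly(A) libraries, with a median of -2.18, while 4694 genes above that and up to 3000 bases had a median of -0.38 and 4276 longer genes of 1.00. The 37 histone genes of up to 1000 bases had a median of -2.50. The 10 longer ones ran from -2.60 to -1.12 with a median of -2.12, and 10 of 10 were called lower, where 38.9% of all tested genes above 1000 and up to 3000 bases and 5.78% of longer ones were. Histone genes with a stem-loop and more than 100 annotated bases after it had a median of -2.18 (16 genes), those with up to 100 bases after it -2.69 (15 genes), and those without a match -2.18 (16 genes). The part of length or of the transcript's end in the protocol difference was not tested.

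**Figure D5:**
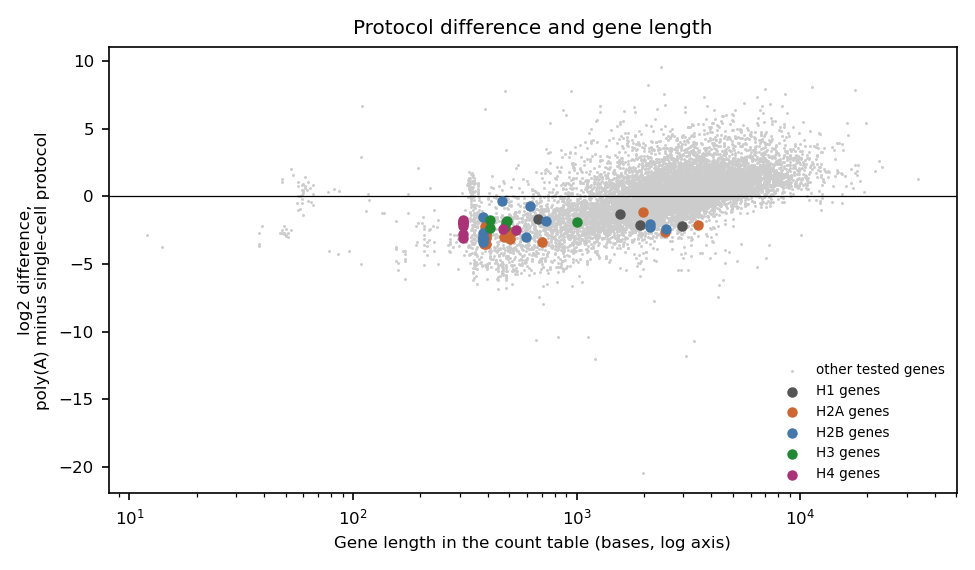
Fitted log2 difference between protocols, poly(A) minus single-cell, against gene length in the poly(A) count table (bases, log axis) for all tested genes (grey) and the 47 histone genes (coloured by class). The histone genes lie below 0. Of them, 37 have up to 1000 bases (median -2.50, against -2.18 for all tested genes of that length) and 10 are longer (median -2.12).

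The size of this difference depends on scaling. With total counts and no further scaling the median of all tested genes was 1.41 and that of the histone genes -1.002, 20 of the 47 were called lower and 0 higher, and Hist1h1c (0.012), Hist3h2a (0.19) and Hist3h2ba (0.57) changed sign. Without GFP+ replicate 19, 24 of 54 tested genes were called lower. As a share of the counts on chromosomes counted in both tables, H2A genes were 1.89-fold higher in the single-cell protocol than in the poly(A) library in GFP- cells and 2.93-fold higher in GFP+ cells. On that scale the ratios in GFP- and GFP+ cells were 0.954 and 1.18 for H1, 0.876 and 2.45 for H2B, 0.981 and 1.69 for H3 and 1.37 and 1.79 for H4.

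Genes that make, carry or accompany these histones were read from lists. Of 14 tested genes of histone mRNA maturation and turnover, 0 were called by edgeR in either direction and 3 had an unadjusted p under 0.05. Slbp, which binds the stem-loop, was at 21.4, 62.2 and 80.6 CPM in GFP- and at 36.1, 107 and 170 CPM in GFP+ libraries, apart within each protocol, at 0.89 ± 0.26 (adjusted p = 0.0563). Lsm11, a part of the U7 particle that cuts histone transcripts, had -0.65 ± 0.24 (adjusted p = 0.119). Npat, the histone gene activator of chromosome 9, was measured in the poly(A) pair alone, at 11.99 and 10.5 CPM.

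Of 14 tested histone chaperones 2 were higher and 0 lower, a share near the 9.81% of all tested genes that were higher. They were subunits of the replication-coupled factor CAF-1, Chaf1a (1.73 ± 0.31, adjusted p = 0.00691) and Chaf1b (0.95 ± 0.23, adjusted p = 0.0294). Nasp, a carrier of H3 and H4, had 0.09 ± 0.22. Of 7 tested replication-independent histone genes, which have a poly(A) tail and are made throughout the cell cycle or replace S phase histones, 2 were higher, the linker H1f0 (1.71 ± 0.22, adjusted p = 0.00134) and the centromere histone Cenpa (1.56 ± 0.27, adjusted p = 0.00566). H3f3a and H3f3b, which encode H3.3, had -0.010 ± 0.32 and 0.48 ± 0.29.

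Of 28 tested S phase and replication genes, 12 were higher in GFP+ cells and 0 lower, where 9.81% of all tested genes were higher and 3.68% lower, with a median log2 fold change of 0.98. Rrm2, a subunit of ribonucleotide reductase, was at 12.05, 20.4 and 15.2 CPM in GFP- libraries and at 60.5, 63.1 and 94.8 CPM in GFP+ libraries. Its populations were apart across both protocols, at 2.21 ± 0.26 (adjusted p = 0.000733). Tk1, thymidine kinase, had 1.87 ± 0.29, E2f1, an activator of S phase genes, 1.43 ± 0.27, and the helicase subunit Cdc45 1.28 ± 0.26. Whether the histone and S phase changes arose in the same cells was not tested.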

How the data were processed

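RNA-seq libraries of 3 GFP+ and 3 GFP- Treg samples were analysed from the counts per Entrez gene that the authors deposited, in 1 table per protocol. The submitters' processing notes name Subread, featureCounts, edgeR and mm9; the sources used here give no versions, read length or treatment of multi-mapping reads. Log2 RPKM values, also deposited by the authors per library, served as an alternative. Gene lengths are those of the file headers' length column.

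Counts were tested with edgeR 4.0.16 in R 4.3.3 (filterByExpr by population, TMM, quasi-likelihood F-test, protocol as covariate, 3 residual degrees of freedom, Benjamini-Hochberg over 10523 genes). Genes at 0 in all 4 single-cell protocol libraries entered no fit. Standard errors derive from the F statistic, and adjusted p-values without a named tool are edgeR's. DESeq2 1.42.0 and limma 3.58.1 were alternatives. The script was tested on simulated data. Library totals of at least 15224051 counts set the counting precision. Another 540 genes had no symbol and stayed in under their number. Chromosomes came from RefSeq by Entrez number, and GRCm38 coordinates are given only for printed sequence, since the counts used mm9.

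The members and lists were chosen with earlier results of these data known. Named were, by rule, up to 5 genes per class with the highest mean CPM, those past the population threshold, the 12 largest protocol differences each way, chromosome 3 genes with at least 10 counts, and up to 5 genes per list with the smallest p; others are named to complete a count or to show a pair. Not every gene so selected is described.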

Additional observations from a re-analysis of the deposited data

How the results depend on the processing

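Without the protocol as covariate 0 histone genes were called between populations, against 21 with it. Leaving out single libraries gave 15 to 22 calls between populations and 24 to 53 between protocols. Between protocols, total counts gave 20 calls against 44, and leaving out GFP+ replicate 19 gave 24. The other population settings gave 18 calls (limma-voom) to 29 (no filter on low counts). With the chromosomes counted in both tables as denominator, the histone share was 0.0189% in GFP- replicate 20 and 0.0638% in GFP+ replicate 19. Signs turned for uncalled population values: Hist1h2bc (-0.0237) and Hist3h2ba (-0.23) without GFP- replicate 2, Hist3h2ba without GFP+ replicate 1 (-0.0874) and on log2 RPKM (-0.0357), and Hist4h4 without GFP- replicate 2 (0.61) or GFP+ replicate 4 (0.29). Leaving out single libraries moved Hist1h2bc from -0.0237 to 0.72, Hist3h2ba from -0.23 to 0.36 and Hist4h4 from -0.52 to 0.61. Between protocols, total counts turned Hist1h1c (0.012), Hist3h2a (0.19) and Hist3h2ba (0.57). The cause was not tested. No paired analysis was possible because the populations share no replicate number and no label pairs their samples. A fit with neighbouring title numbers as blocks in place of the protocol, a grouping that no label states to be pairs, gave 26 calls. Over all genes, calls between populations were 1419, against 2494 with no filter on low counts, 139 with no protocol term and 2921 with that block. Removing a library gave 742 (GFP- replicate 20), 2183 (GFP- replicate 5) or 721 (GFP+ replicate 19), and between protocols 4406 or 4233 in place of 6854 when GFP- replicate 20 or GFP+ replicate 19 was removed. Low counts, with H3 and H4 genes often under 50 counts, limit single genes.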
